A study of Mus musculus with 2 samples.

Results

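Cycling C1q macrophages were chosen by their measured transcripts, as the cells of 2 single-cell libraries that carried both complement C1q and cell-cycle transcripts, and 255 of 13939 kept cells met the rule. Each cell needed under 20% mitochondrial unique molecular identifiers (UMIs, each standing for 1 captured RNA molecule). Per 10000 UMIs of the cell, *C1qa*, *C1qb* and *C1qc* had to sum to 15 or more and *Mki67*, *Top2a*, *Birc5*, *Ube2c*, *Pclaf* and *Nusap1* to 10 or more. Cells with more than 1 UMI of *Cd3d*, *Cd3e* and *Cd3g*, or with *S100a8* plus *S100a9* at 100 or more, were left out. The same rule without its cycle term defined 1356 UT and 558 BUP C1q cells, and those below the cycle threshold are called cells outside the cycle. The rule used measured values, so the levels of its 14 genes are a description and carry no weight as a result. The tumors were grown under the skin from CT26, a mouse colon carcinoma line, in young adult male BALB/c mice. UT tumors received no gel, and BUP tumors received BUP-Gel, a hydrogel that releases the local anesthetic bupivacaine close to the tumor. Cells of 3 tumors were pooled per condition, sorted live as CD45+ and CD45- cells and remixed in 4 to 1 proportion by the labels or 3 to 1 by the methods, so 1 library stood for each condition and no gel-only group was among the samples used here. With 1 library a group there is no replicate and no test between UT and BUP. Intervals below are at 95%, exact binomial for shares, exact Poisson for sums and conditional on the summed counts for ratios, and all cover counting error only.

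C1q is the recognition component of the classical complement pathway, and in tumors it is made mainly by mature macrophages, which clear dying cells, present antigen and express *Mrc1*, *Apoe* and *Csf1r*. Macrophages are mostly renewed from blood monocytes, but mature macrophages can also divide in place, driven largely by CSF1 acting on its receptor CSF1R. A dividing cell first licenses replication origins and copies its DNA, with MCM helicase, PCNA and DNA polymerase genes under E2F control. It then expresses cyclin B, spindle and centromere genes for mitosis, many of which are repressed in resting cells through the DREAM complex at cell-cycle homology region (CHR) sequences.

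The 3 C1q genes lie side by side on chromosome 4 of GRCm39, all on the minus strand, with *C1qb* at chr4:136606009-136613511, *C1qc* at chr4:136616466-136620376 and *C1qa* at chr4:136623223-136626161. *Mki67*, which encodes the proliferation antigen Ki-67, lies at chr7:135291513-135318299 on the minus strand, and *Top2a*, the DNA topoisomerase of replicating cells, at chr11:98883769-98915062 on the minus strand. Sequencing gave 7556 barcodes with 83228442 UMIs in UT and 7221 barcodes with 89918925 UMIs in BUP. The mitochondrial limit removed 393 and 445 of these, among them 15 UT and 3 BUP barcodes that met the rest of the rule. Kept cells had median depths of 8430 and 10420 UMIs. The libraries shared 76 barcode sequences, and none of them was a member in both.

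The markers fit the label for most members. *Ptprc*, the leukocyte antigen CD45, was found in 88.0% of UT and 90.9% of BUP members, and *Csf1r* in 89.5% and 89.1%. The macrophage identity list of 16 genes made up 31071 counts per 1000000 UMIs (CPM) in UT members and 29543 CPM in BUP members, against 41090 and 37653 CPM in cells outside the cycle. All 16 of its genes had UMIs in members of both libraries. The mice were male, so 4 Y-linked genes were taken as a sign of host origin. Whether CT26 cells carry a Y chromosome is not given by the labels or the study, so this reading is uncertain. These 4 genes were found in 66.0% of UT and 63.6% of BUP members, against 4.23% and 3.08% of the cells without *Ptprc* that were classed as tumor cells. Their sum was lower in BUP members, at 80.2 CPM against 122 CPM in UT (log2 -0.61, interval -0.99 to -0.25). Outside the cycle it was 121 CPM in UT and 120 CPM in BUP. The reason was not tested. A group of 15 UT and 2 BUP members had neither a *Ptprc* nor a *Csf1r* UMI, and the label has no such support in these cells.

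Members made up 2.79% of kept UT cells (200 of 7163, interval 2.42 to 3.20) and 0.812% of kept BUP cells (55 of 6776, interval 0.612 to 1.06). Shares of kept cells depend on the remixing of CD45+ and CD45- cells, and the tumor-cell class was 13.8% of kept cells in UT and 34.0% in BUP. Among C1q cells, a denominator that the remixing does not set, 14.7% were in the cycle in UT (200 of 1356, interval 12.9 to 16.7) and 9.86% in BUP (55 of 558, interval 7.51 to 12.6). The BUP share was 4.89 percentage points lower, with an interval of the difference from -7.97 to -1.56. Under this rule both the number of C1q cells and the share of them in the cycle were thus lower in the BUP library. The *Cd3* limit took a larger part of the BUP cells. Before the last limits, 249 of 1609 UT and 98 of 825 BUP cells with enough C1q met the cycle term. The *Cd3* limit left out 45 and 41 of these, and the *S100a8* and *S100a9* limit 4 and 2. The part of these limits in the difference was not tested.

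**Figure D1:**
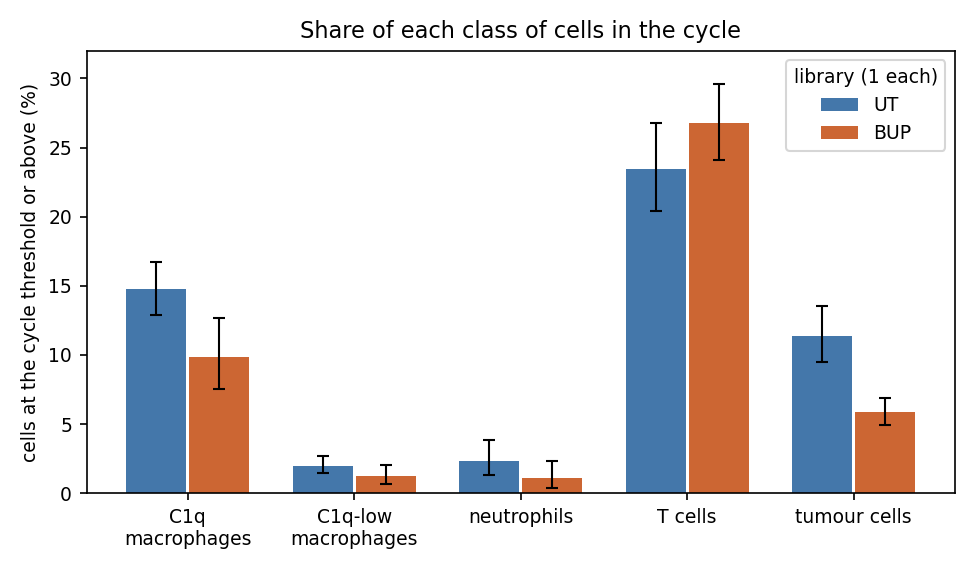
Share of cells (%) at or above the cycle threshold of 10 UMIs per 10000 in 5 cell classes, with 1 bar per library (UT and BUP) and exact binomial 95% intervals as error bars. C1q macrophages stood at 14.7% in UT and 9.86% in BUP, far above the neutrophils at 2.35% and 1.08%.

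Neutrophils, which no longer divide once mature, gave the background of free RNA and miscalled cells. They passed the cycle threshold in 2.35% of 637 UT and 1.08% of 553 BUP cells. C1q-low macrophages stood near that background, with 1.97% of 2130 cells in UT and 1.23% of 1135 in BUP. T cells were in the cycle in 23.5% of UT and 26.8% of BUP cells, and the tumor-cell class in 11.4% and 5.85%. C1q macrophages were therefore between the C1q-low macrophages and the T cells in both libraries.

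The cycling share was lower in BUP at each level of C1q, but the UT and BUP intervals overlapped at each level. In UT it was 11.8% of cells with C1q at 15 to 30 per 10000, 12.7% at 30 to 60, 13.9% at 60 to 120 and 17.0% at 120 or more. In BUP the same bins held 6.58%, 10.9%, 8.19% and 11.9%. Sequencing depth also moved with the share. Cells under 2000 UMIs gave 18.1% in UT and 10.9% in BUP, cells of 5000 to 10000 UMIs gave 11.2% and 5.07%, and cells over 20000 gave 25.1% and 17.0%. In the largest bin, of 10000 to 20000 UMIs, the shares were close, at 10.3% of 556 UT and 9.50% of 200 BUP cells. Their intervals were 7.86 to 13.1 and 5.82 to 14.4. BUP was below UT in all 5 depth bins, but the UT and BUP intervals overlapped in each.

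The lowest member stood at 10.0 cycle UMIs per 10000 in UT and 10.7 in BUP, and the highest cell outside the cycle at 9.86 and 9.48. Just inside the threshold, at 10 to 12, were 30 UT and 4 BUP members. Just outside it, at 8 to 10, were 39 and 8 cells. In shallow cells a single UMI can decide membership, and 14 UT and 1 BUP members rested on 1 cycle UMI. The members had median depths of 15968 UMIs in UT and 14977 in BUP, deeper than the 12369 and 11092 of cells outside the cycle. The kept cells with 2000 or more UMIs, 6154 in UT and 6123 in BUP, were downsampled to 2000 UMIs each before the rule was applied. The other 1009 and 653 were left out. Of 1316 UT and 612 BUP C1q cells then, 17.3% and 14.1% were in the cycle, a difference of -3.27 points. The *Cd3* limit of 1 UMI is looser at this depth. Without downsampling the rule held 1196 and 512 C1q cells of 2000 or more UMIs, so the downsampled set took in further cells. Of those 1196 and 512 cells at this depth, 17.6% of UT (interval 15.4 to 19.8) and 12.9% of BUP (interval 10.1 to 16.1) had at least 2 cycle UMIs. The neutrophil shares were 2.91% and 1.59%. A cycle threshold of 20 per 10000 left 6.49% and 5.02%, a difference of -1.47 points. No interval was taken for this difference or for the -3.27 points, so neither is known to lie beyond counting error.

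Transcripts of other cell types were present in some members. A total of 38 UT members (19.0%) and 10 BUP members (18.2%) had 3 or more UMIs of T, NK, B, plasmacytoid or mast cell markers or 2 or more of the tumor genes *Ogn* and *Aspn*, against 14.2% and 12.5% of cells outside the cycle. The NK list, with 6 of its 7 genes present and *Klra8* at 0 in both, summed to 392 CPM in UT and 300 CPM in BUP, and 17 UT and 4 BUP members held 10 or more of its UMIs. Of the B cell markers, *Cd79b* was found, and *Cd79a*, *Ms4a1* and *Pax5* were at 0 in members of both libraries. The neutrophil list was higher in BUP members, at 1468 CPM against 849 CPM, with *S100a9* at 986 and 500 CPM. T cell markers summed to 71.4 CPM in each. Scrublet doublet scores in the top 6% of a library were found in 19 UT and 9 BUP members (9.50% and 16.4%), against 5.45% and 6.36% of cells outside the cycle. Doublets were left in, and their part in the results was not tested beyond the alternatives given.

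Within each library, the members differed from C1q cells outside the cycle first in the cell-cycle genes, as the rule requires. Of 4021 genes with enough UMIs, 279 were 1.5-fold or more higher in members in both libraries (6.94%) and 78 were lower in both (1.94%). Of the mitotic entry and checkpoint list, 16 of 22 genes passed the UMI filter and those 16 were among the higher ones, as were 30 of 33 spindle and chromosome genes, with 30 past the filter, and the 14 of 14 chromatin and tubulin genes. Origin licensing had 6 of 18 genes past the filter, DNA synthesis 13 of 24 and nucleotide supply 12 of 20. Of these, 6, 12 and 11 were higher, the exceptions being *Slbp* and *Atic*. A gene that is high in members alone passes the filter through them, so these counts only describe the rule. Outside the rule genes, the naming rule put *Prc1* first, which bundles microtubules of the central spindle, at 139 CPM in UT members against 3.93 CPM outside the cycle, and at 167 against 3.56 CPM in BUP. *Cenpf*, a kinetochore protein of late G2 and mitosis, was higher by 4.44 in UT and 5.0 in BUP on the log2 scale. *Plk1*, the kinase that drives mitotic entry, was higher by 4.00 and 5.62, and *Ccna2*, the S and G2 cyclin, by 4.30 and 4.62. *H2ac8* and *H1f5*, replication-dependent histone genes, were higher by 4.81 and 5.14 and by 4.24 and 5.54. Histone genes have close copies that can share reads, so their values are uncertain. Among the cell-cycle brakes, 3 of 13 genes were higher in members, including the CDK inhibitors *Cdkn2c* (2.54 in UT and 2.60 in BUP) and *Cdkn2d* (1.67 and 1.78).

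Promoters of the mitosis and DNA synthesis lists were searched for short sequence motifs, over all listed genes whether or not they passed the UMI filter. Windows of 250 bases, 220 before and 30 from the start of the canonical GENCODE vM39 transcript, were searched on both strands for the CHR letters TTTGAA, for the E2F letters TTCCCGC or TTGGCGC, and for CCAAT. CHR letters were in 23 of 55 windows of the mitosis lists (41.8%) and 2 of 42 of the DNA synthesis lists (4.76%), against 14.4% of 21770 protein-coding genes. E2F letters were in 14 of 42 DNA synthesis windows (33.3%) and 8 of 55 mitosis windows (14.5%), against 7.03% of all. CCAAT was in 37 of 55 and 23 of 42 windows (67.3% and 54.8%), against 36.4% of all, and CHR together with CCAAT was in 19 of 55 (34.5%), against 5.63%. Of 275 windows of the genes higher in members in both libraries, 26.9% held CHR and 18.2% E2F letters. Among 3983 windows of all genes compared between members and cells outside the cycle, the shares were 11.5% and 10.5%. The genes higher in members were found through the cycle rule, so their shares only describe it. A match is a description of letters and not a measured binding site. The 5 promoters below, from GRCm39, show CHR letters in capitals for 3 genes of the mitosis lists and E2F letters in capitals for 2 of the DNA synthesis lists, on the strand of the gene from 5′ to 3′. *Prc1* (chr7:79943967-79944216, plus strand) holds CHR letters 8 bases into the transcript, *Ccnb2* (chr9:70328845-70329094, minus strand) holds them 129 bases upstream, and *Cdk1* (chr10:69188739-69188988, minus strand) 45 bases upstream and again at base 12 of the transcript. *Mcm5* (chr8:75835920-75836169, plus strand) holds E2F letters 167 and 152 bases upstream, and *Pola1* (chrX:92675784-92676033, minus strand) holds them 117, 86 and 69 bases upstream. Capitals reading GCGCCAA or GCGGGAA are E2F letters on the opposite strand. Other matches stand in lower case, and these are E2F letters 152 bases upstream in *Cdk1* and CCAAT on either strand in all 5 windows.
Prc1: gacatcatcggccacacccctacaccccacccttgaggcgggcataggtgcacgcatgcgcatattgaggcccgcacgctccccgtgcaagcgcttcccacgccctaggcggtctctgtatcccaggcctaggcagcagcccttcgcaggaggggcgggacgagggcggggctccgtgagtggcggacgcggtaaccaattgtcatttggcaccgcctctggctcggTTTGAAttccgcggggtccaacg
Ccnb2: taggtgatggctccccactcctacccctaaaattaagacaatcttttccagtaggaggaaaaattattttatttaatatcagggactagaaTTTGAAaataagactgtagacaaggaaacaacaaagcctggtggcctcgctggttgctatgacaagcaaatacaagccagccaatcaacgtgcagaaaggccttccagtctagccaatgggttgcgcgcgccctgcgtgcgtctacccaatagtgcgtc
Cdk1: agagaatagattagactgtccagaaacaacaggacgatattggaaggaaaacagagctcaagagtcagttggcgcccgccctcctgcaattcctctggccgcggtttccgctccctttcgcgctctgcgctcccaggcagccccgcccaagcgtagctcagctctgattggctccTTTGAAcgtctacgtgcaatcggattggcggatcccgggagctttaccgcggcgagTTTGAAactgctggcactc
Mcm5: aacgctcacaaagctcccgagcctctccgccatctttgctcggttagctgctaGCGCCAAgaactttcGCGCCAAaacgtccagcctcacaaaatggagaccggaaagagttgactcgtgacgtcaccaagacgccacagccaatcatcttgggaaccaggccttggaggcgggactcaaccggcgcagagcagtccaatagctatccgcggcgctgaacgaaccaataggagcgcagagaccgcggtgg
Pola1: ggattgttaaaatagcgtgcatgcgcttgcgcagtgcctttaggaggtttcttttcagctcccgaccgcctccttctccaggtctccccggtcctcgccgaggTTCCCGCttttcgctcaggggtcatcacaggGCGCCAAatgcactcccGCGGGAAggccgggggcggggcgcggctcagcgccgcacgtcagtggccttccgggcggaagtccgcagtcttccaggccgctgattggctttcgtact

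The members ranged from a lean to DNA synthesis to a lean to mitosis, among the cells that the cycle genes of the rule let in. For each member, UMIs of the DNA synthesis lists (origin licensing and DNA synthesis) were set against UMIs of the mitosis lists (mitotic entry and spindle), without the rule genes. Of the members with 10 or more such UMIs, 178 in UT and 51 in BUP, the median mitosis share was 78.7% in UT (quartiles 60.5 to 88.7) and 82.3% in BUP (quartiles 65.0 to 91.3). The range was 27.5% to 98.5% in UT and 41.7% to 94.4% in BUP. Members leaning to DNA synthesis, with a mitosis share under 50%, numbered 25 in UT (14.04%, interval 9.30 to 20.03) and 2 in BUP (3.92%, interval 0.478 to 13.5). Members with 75% or more numbered 104 (58.4%) and 32 (62.7%). A further 49 UT and 17 BUP members lay between. The intervals of the synthesis-leaning shares overlap, and 45 UT and 9 BUP members lay within 5 points of a boundary. Leaving out the rule genes does not make these shares independent of the rule, since cells low in those genes are not members. In UT the rule gene *Mki67* was at 405 CPM in synthesis-leaning members, 597 CPM in those between and 719 CPM in those with 75% or more. The part of the rule in the lean to mitosis was not tested.

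**Figure D2:**
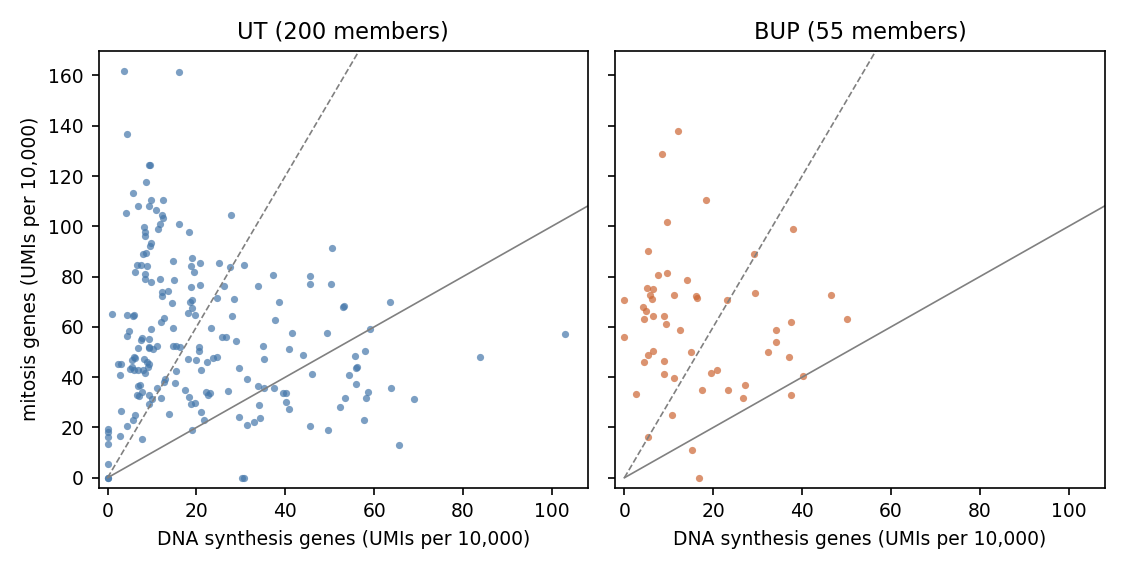
Each point is 1 member, with its DNA synthesis list UMIs per 10000 on the x axis and its mitosis list UMIs per 10000 on the y axis, UT on the left (200 members) and BUP on the right (55 members); the solid line marks a mitosis share of 50% and the dashed line 75%. Of members with 10 or more such UMIs, 25 UT and 2 BUP fell under the solid line.

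Summed over members, the DNA synthesis lists were at 2183 CPM in UT against 1763 CPM in BUP, a log2 ratio of -0.31 (interval -0.39 to -0.23). The mitosis lists were at 5790 and 6021 CPM, a log2 ratio of 0.06 (interval 0.01 to 0.10). With a cycle threshold of 20 the DNA synthesis ratio was 0.0046. The mitosis value changed sign, to -0.14, with that threshold. Cells outside the cycle were also lower in BUP for these lists, with log2 ratios of -0.35 for origin licensing and -0.26 for DNA synthesis. In members, 0 of 6 origin licensing genes and 4 of 13 DNA synthesis genes were 1.5-fold or more lower in BUP, against 3.4% of all 3710 genes compared. These 4 included *Pola1*, the catalytic subunit of DNA polymerase alpha, at 89.2 CPM in UT against 56.0 CPM in BUP, and *Dnmt1*, which copies DNA methylation, at 103 and 64.8 CPM. *Pcna*, the sliding clamp, was at 183 and 130 CPM and the helicase gene *Mcm5* at 77.0 and 73.6 CPM. *Rrm2*, the ribonucleotide reductase subunit, was at 185 and 141 CPM. Among mitotic genes, *Cks2*, a partner of CDK1, was higher in BUP, at 209 CPM against 135 CPM in UT (log2 0.63, interval 0.38 to 0.88). Its ratio fell under the fold in several alternatives, to 0.22 with the rule applied after thinning. *Pola1* and *Dnmt1* also lost the fold in some, at -0.32 and -0.37 with a cycle threshold of 20.

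Gene levels in UT members were also taken by their leaning. *Pcna* was at 458 CPM in the 25 synthesis-leaning members, 234 CPM in those between and 71.4 CPM in the mitosis-leaning ones, and *Plk1* ran the other way, at 11.8, 43.8 and 151 CPM. These genes belong to the lists that made the leaning. Of genes outside them, the chemokine *Ccl8* was at 2905 CPM in the synthesis-leaning members against 1008 and 1340 CPM in the other two sets. The NK list was at 739, 445 and 260 CPM, while the share of cells with any of its UMIs was 28%, 30.6% and 26.9%. In BUP the synthesis-leaning set had 2 cells and gives no level worth reading.

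Relative to C1q cells outside the cycle, members of both libraries were lower in monocyte, inflammatory, repair and hypoxia genes. Of 8 monocyte-type genes past the filter, 5 were 1.5-fold or more lower in both, of 11 inflammatory genes 5, of 8 alternative and repair genes 4, of 15 chemokines 5 and of 16 glycolysis and hypoxia genes 4, against 1.94% of all genes. *Thbs1*, an adhesion glycoprotein of early macrophages, was lower by a log2 of -1.52 in UT and -1.64 in BUP. *Vegfa*, the angiogenic growth factor, was at -1.27 and -1.42, the hypoxia-inducible lipid droplet gene *Hilpda* at -1.17 and -1.54, and the cytokine gene *Il1a* at -1.48 and -1.53. The coagulation factor gene *F13a1* was at -1.10 and -1.56 and the histidine-degrading enzyme *Hal* at -1.18 in each. *Arg1*, arginase of alternatively activated macrophages, was at 653 CPM in UT members against 1389 CPM outside the cycle, and at 410 against 938 CPM in BUP. *Mmp12*, macrophage elastase, was at 105 against 265 CPM in UT and at 64.8 against 299 CPM in BUP. *Csf1r* differed little, by -0.09 and -0.32. None of the MHC class II genes passed 1.5-fold in both libraries. The hemoglobin genes *Hba-a1*, *Hba-a2* and *Hbb-bs* were also among the lowest, with 96.8% or more of their UMIs in 5 members, and their near-identical copies make them uncertain.

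**Figure D3:**
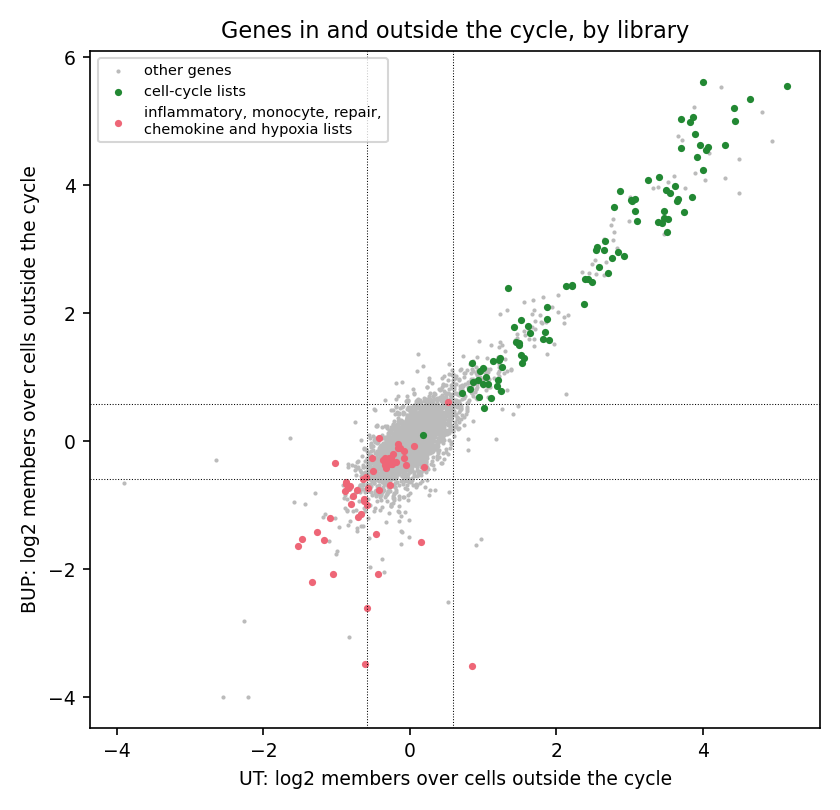
Each point is 1 gene, with the log2 ratio of members over C1q cells outside the cycle in UT on the x axis and in BUP on the y axis (values beyond -4 on the y axis are drawn at -4, and dotted lines mark 1.5-fold). Cell-cycle lists (green) lie to the upper right, up to 5.15 in UT for *Prc1*, and inflammatory, monocyte, repair, chemokine and hypoxia lists (pink) mostly lie below 0.

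Between the libraries, 49 of 3710 genes were 1.5-fold or more higher in BUP members (1.32%) and 126 were 1.5-fold or more lower (3.4%), with a median log2 ratio over all genes of -0.05. Scaled by the median ratio of genes in place of the total, the numbers were 69 higher and 98 lower. Of the lists described below, those of oxidative phosphorylation, MHC class I, macrophage identity, glycolysis and spindle genes held none in either direction.

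**Figure D4:**
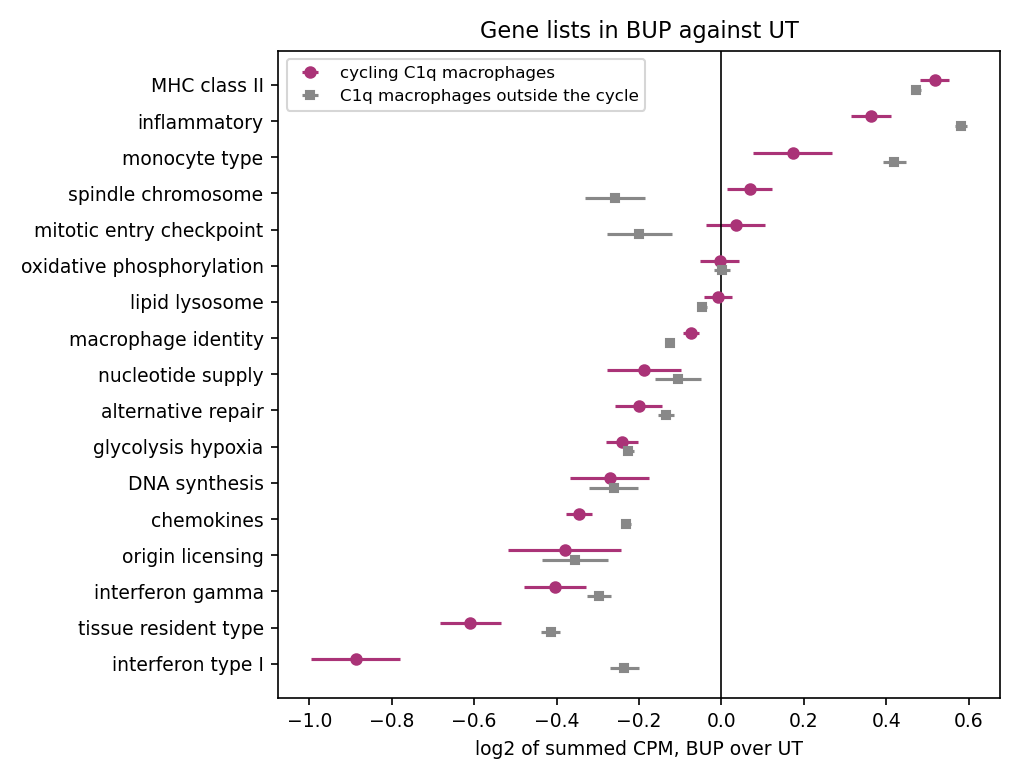
Log2 ratio of summed CPM, BUP over UT, for 17 gene lists in members (circles) and in C1q macrophages outside the cycle (squares), with 95% counting intervals. The MHC class II list stood at 0.52 in members and the type I interferon list at -0.89.

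MHC class II genes, which present peptides to CD4+ T cells, were higher in BUP members. Of 10 listed genes, 8 passed the UMI filter, and 5 were past 1.5-fold higher and 0 lower, and the list summed to 7008 CPM in UT and 10028 CPM in BUP (log2 0.52, interval 0.48 to 0.55). Cells outside the cycle differed in the same direction, by 0.47. Across the alternatives the list ranged from 0.28 to 0.71. *H2-Aa* (chr17:34493404-34506798, minus strand), the alpha chain of I-A, was at 827 CPM in UT against 1465 CPM in BUP. Its median per cell was 0.83 UMIs per 10000 in UT members and 5.33 in BUP members, and the highest cell had 101 and 81.6. The sums rested on few cells, since 5 of the 55 BUP members held 54.4% of its UMIs and 5 of the 200 UT members 28.0%. For *Cd74* these shares were 44.2% and 17.3%. For *H2-Ab1*, *H2-Eb1* and *H2-Ea* they were 51.6% to 54.7% in BUP and 27.5% to 29.6% in UT. *H2-Ab1* (chr17:34476663-34488393, plus strand), the beta chain, was at 696 and 1248 CPM, and *H2-Eb1* (chr17:34504236-34535648, plus strand) at 498 and 905 CPM. *H2-Ea*, the I-E alpha chain, had the largest ratio of the list, at 352 and 747 CPM (log2 1.09, interval 0.95 to 1.22). *Cd74*, the invariant chain that guards the peptide groove, was at 2555 and 4096 CPM (log2 0.68, interval 0.62 to 0.74). Across the alternatives *H2-Aa* ranged from 0.49 to 1.12, *H2-Eb1* from 0.55 to 1.14 and *Cd74* from 0.46 to 0.88, at the lower end under the fold. *Ctss*, the protease that removes the invariant chain, was at 1970 and 1759 CPM. Thinned to 2000 UMIs, 42.1% of UT and 54.0% of BUP members had an *H2-Aa* UMI, against 14.3% and 12.3% of T cells, which should lack it and had median depths of 8134 and 8153.5 UMIs. The counting intervals of both member shares overlap, from 34.6 to 49.9% and from 39.3 to 68.2%.

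Class II genes were higher in members of the lower C1q range in UT but not in BUP. In UT, *H2-Aa* was at 2046 CPM in the 47 members with C1q at 15 to 60 per 10000 and at 548 CPM in the 153 members at 60 or more, and *Cd74* was at 4738 and 2055 CPM. In BUP, *H2-Aa* was at 1389 CPM in the 16 members of the lower range and at 1483 CPM in the 39 above, and *Cd74* was at 4111 and 4092 CPM. *Ccl8* ran the other way, at 240 and 1747 CPM in UT and at 67.2 and 448 CPM in BUP. Members of the lower C1q range were shallower, with median depths of 10749 UMIs in UT and 8858.5 in BUP against 17878 and 17143. They also held more NK transcripts, at 756 against 308 CPM in UT and 476 against 257 CPM in BUP. *Csf1r* was found in 76.6% and 81.3% of them, against 93.5% and 92.3%. The part of other cells in this difference was not tested.

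Genes of tissue-resident macrophages were lower in BUP members, with 6 genes past 1.5-fold and 0 higher, of 9 that passed the UMI filter and 14 listed. The list summed to 2922 CPM in UT and 1915 CPM in BUP (log2 -0.61, interval -0.68 to -0.54), and cells outside the cycle differed by -0.41. It ranged from -0.76 to -0.51 across the alternatives. *Mrc1* (chr2:14234151-14336926, plus strand), the mannose receptor, was at 992 and 658 CPM (log2 -0.59, interval -0.72 to -0.47), and its median per cell was 7.17 and 5.30 UMIs per 10000. Its ratio lay close to the fold, from -0.90 to -0.52 across the alternatives. At 2000 UMIs a cell it was found in 69.0% of UT (interval 61.5 to 75.8) and 54.0% of BUP members (interval 39.3 to 68.2), against 8.18% and 5.2% of T cells. *Folr2*, a folate receptor of resident macrophages, was at 195 and 95.6 CPM, and *Gas6*, a ligand of the MERTK and AXL receptors that recognize dying cells, at 98.7 and 34.1 CPM. *Cbr2*, a carbonyl reductase, was at 217 and 95.6 CPM. In BUP members 5 cells held 69.0% of the *Cbr2* and 71.0% of the *Gas6* UMIs, against 33.0% and 27.9% in UT members. *Lyve1*, the hyaluronan receptor, was at 58.4 and 19.8 CPM, with 86.0% of its UMIs in 5 cells and a ratio of -0.44 with the rule applied after thinning. All 5 genes named here had lower values in the BUP library in members and outside the cycle.

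The type I interferon list was lower in BUP members, with 6 genes past 1.5-fold and 0 higher, of 11 that passed the UMI filter and 24 listed. It summed to 1647 CPM in UT and 890 CPM in BUP (log2 -0.89, interval -1.0 to -0.78), and cells outside the cycle differed by -0.24. Across the alternatives it ranged from -1.13 to -0.43. *Irf7*, the transcription factor that amplifies interferon production, was at 185 and 67.0 CPM (log2 -1.46, interval -1.87 to -1.08), and *Rsad2*, the antiviral enzyme viperin, at 82.7 and 30.8 CPM. *Isg15*, a ubiquitin-like modifier, was at 219 and 84.6 CPM (log2 -1.37, interval -1.73 to -1.03). With the rule applied anew after thinning to 2000 UMIs, which selected 228 UT and 86 BUP cells, the log2 ratios were 0.16 for *Isg15* and -0.56, under the fold, for *Irf7*. In the members themselves thinned to that depth, *Isg15* was at 178 and 100 CPM, and 21.1% of UT and 16% of BUP members had an *Isg15* UMI, close to the 18.8% and 15.6% of T cells, which also respond to interferon. The *Isg15* promoter (chr4:156285274-156285523, minus strand, GRCm39), in the same window of 250 bases, holds 3 overlapping matches to the interferon-stimulated response element letters (GAAA, any 2 bases, then GAAA), 50, 44 and 38 bases upstream of the start, in capitals below. Such letters were in 12 of 24 windows of the list (50%), against 3.13% of all protein-coding genes.
Isg15: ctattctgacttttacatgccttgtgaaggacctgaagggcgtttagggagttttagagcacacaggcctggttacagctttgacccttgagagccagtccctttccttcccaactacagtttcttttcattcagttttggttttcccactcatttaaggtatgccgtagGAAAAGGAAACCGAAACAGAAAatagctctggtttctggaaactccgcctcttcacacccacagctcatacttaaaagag

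Interferon gamma response genes were lower to a smaller extent, with 5 genes past 1.5-fold lower and 0 higher, of 14 that passed the filter and 18 listed, and sums of 2493 and 1884 CPM (log2 -0.40). Cells outside the cycle differed by -0.30. *Cxcl9*, which attracts CXCR3-bearing T cells, was at 351 CPM in UT against 180 CPM in BUP (log2 -0.96, interval -1.21 to -0.73), with 37.9% of its UMIs in UT members from 5 cells. With the rule applied after thinning to 2000 UMIs the *Cxcl9* ratio was -0.29, under the fold. *Cxcl10*, another ligand of that receptor, was at 419 and 345 CPM. *Cd274*, encoding PD-L1, was at 187 and 117 CPM in members and at 248 and 245 CPM outside the cycle, and *Igtp*, an immunity-related GTPase, at 76.4 and 41.8 CPM. MHC class I genes, which interferons also raise, had 0 of 14 past the fold, with *H2-D1* at 3271 and 3348 CPM and *B2m* at 2619 and 2317 CPM.

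Of the 15 chemokines, 1 was past 1.5-fold higher and 3 were lower in BUP members. *Ccl8* (chr11:82006007-82007625, plus strand) was at 1466 CPM in UT against 374 CPM in BUP (log2 -1.97, interval -2.13 to -1.81), while cells outside the cycle had 1318 and 1118 CPM (log2 -0.24). Its median per cell was 4.23 UMIs per 10000 in UT and 0.64 in BUP members, and the highest cell had 161 and 30.6. Across the alternatives the ratio ranged from -2.26 to -1.37. At 2000 UMIs a cell 53.2% of UT (interval 45.5 to 60.9) and 38% of BUP members (interval 24.7 to 52.8) had a UMI, against 8.32% and 2.85% of T cells, and the intervals of both member shares overlap. *Ccl2* and *Ccl7*, which had the most UMIs of the list, were at 3520 and 2770 CPM and at 2279 and 1900 CPM, under the fold. *Ccl5* was at 133 and 15.4 CPM, but 82.7% of its UMIs came from 5 cells.

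Inflammatory genes showed no common direction in members, with 5 of the 10 genes past the UMI filter above a log2 ratio of 0 and a median of 0.09. Their sum was 3838 CPM in UT and 4936 CPM in BUP (log2 0.36), against 0.58 outside the cycle, and it ranged from 0.08 to 0.76 across the alternatives. Only *Cxcl1* of 10 genes passed the fold, at 204 and 465 CPM (log2 1.19, interval 1.01 to 1.37). Its median per cell was 0 in both libraries, 72.3% of its UMIs in BUP members came from 5 cells, and without the highest Scrublet scores the ratio was 0.28. *Cxcl2*, which like *Cxcl1* attracts neutrophils through CXCR2, was at 1572 and 2272 CPM. Its median per cell was 5.0 UMIs per 10000 in UT and 4.67 in BUP, so the difference in the sum lay in the cells with most of it. The neutrophil list moved with this result, at 849 and 1468 CPM, and its part was not tested.

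The study asked whether blocking nerve signals changes the type of macrophage in the tumor, and named *Tnf*, *Cd86*, *Arg1*, *Mrc1* and *Nos2* for that purpose. *Tnf*, a cytokine of inflammatory macrophages, was at 154 CPM in UT members and 141 CPM in BUP members (log2 -0.13, interval -0.42 to 0.15). At 2000 UMIs a cell its share of 19.9% and 14% was no higher than the 16.5% and 18.7% of T cells beyond counting error. T cells are no background for *Tnf*, since the study measured TNF-α in CD8+ T cells of CT26 tumors. In the tumor-cell class the shares were 0.806% and 0.130%. *Cd86*, the costimulatory ligand, was at 197 and 252 CPM (log2 0.36, interval 0.13 to 0.57), under the fold. *Arg1* (chr10:24791118-24803817, minus strand) was at 653 and 410 CPM (log2 -0.67, interval -0.83 to -0.51), and between -0.84 and -0.53 across the alternatives, in part under the fold. *Arg1* was uneven, with UMIs in 47.0% of UT and 56.4% of BUP members and medians of 0 and 0.82 UMIs per 10000, so its lower sum in BUP came with a larger share of cells that had it. At 2000 UMIs a cell the shares were 30.4% and 36%, and 11.0% and 8.15% in T cells. *Nos2*, inducible nitric oxide synthase, had 32 and 7 UMIs in all members, which is too few to compare.

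**Figure D5:**
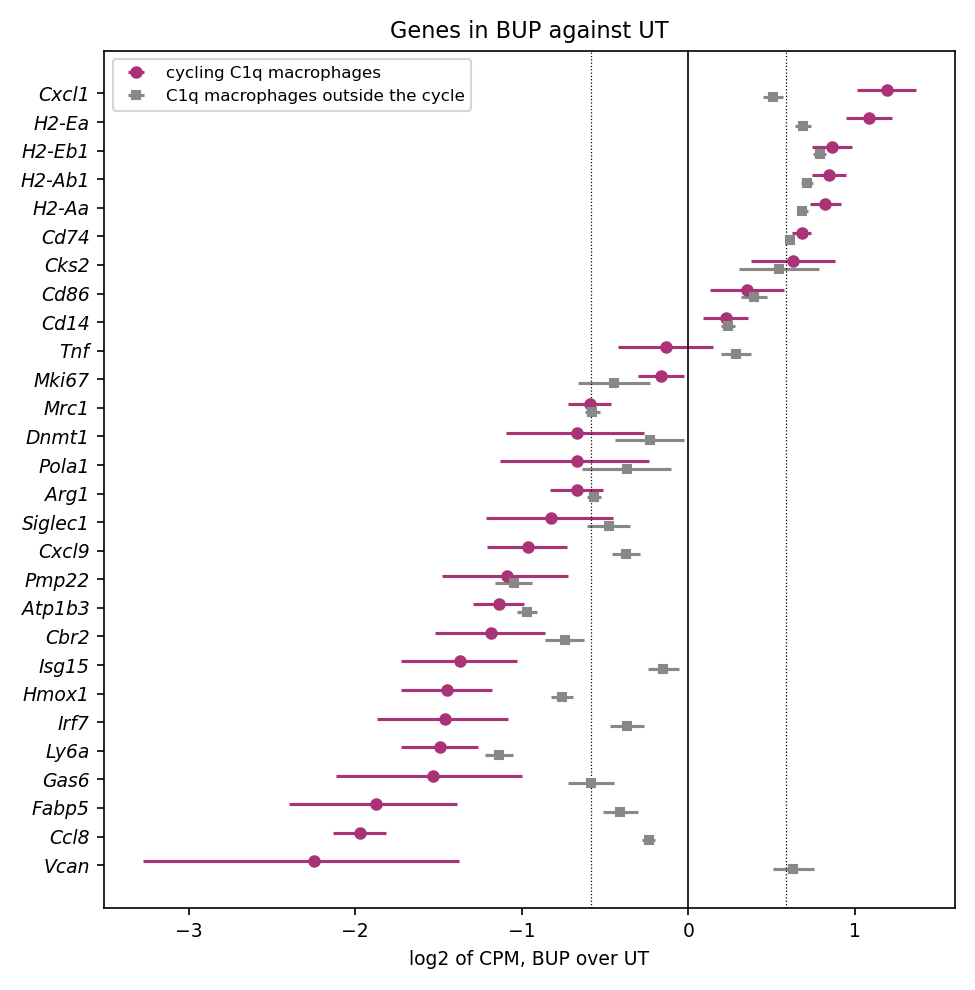
Log2 ratio of CPM, BUP over UT, of 28 genes in members (circles) and in C1q macrophages outside the cycle (squares), with 95% counting intervals and dotted lines at 1.5-fold. *Ccl8* stood at -1.97 in members and -0.24 outside the cycle, while *H2-Aa* stood at 0.82 and 0.69.

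RNA of acetylcholine receptors and related genes was scarcely detected in members. Acetylcholine is the signal that the study set out to block. By flow cytometry, the study reported CHRM3, CHRM5 and CHRNA7 protein in macrophages of CT26 tumors, so low RNA counts do not show that the receptors are absent. The 23 genes of the list summed to 8.89 CPM in UT and 4.39 CPM in BUP. *Chrm3*, the M3 muscarinic receptor, had 16 UMIs in UT and 2 in BUP members, found in 4.00% and 3.64% of them. At 2000 UMIs a cell it was found in 1.17% of UT members and in 0 of 50 BUP members. No difference between the libraries was detectable at this depth.

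Several other genes were lower in BUP members. *Fabp5*, a fatty acid carrier, was at 149 CPM in UT against 40.7 CPM in BUP (log2 -1.87, interval -2.40 to -1.39), and cells outside the cycle differed by -0.41. Its median per cell was 0 in members of both libraries, and 5 cells held 40.8% of its UMIs in UT and 67.6% in BUP members. *Hmox1*, heme oxygenase, was at 369 and 135 CPM, with 47.8% of its UMIs in 5 cells. *Ly6a*, the interferon-inducible surface protein Sca-1, was at 526 and 187 CPM (log2 -1.49), and -1.13 outside the cycle. *Atp1b3*, a sodium pump subunit, was at 928 and 422 CPM (log2 -1.14) and -0.97 outside. *Siglec1*, the sialic acid receptor CD169, was at 132 and 74.7 CPM, and its ratio was -0.40 with the rule applied after thinning. *Atp1b3*, *Ly6a* and *Pmp22*, at 157 and 73.6 CPM, thus had similar ratios in members and outside the cycle. Of genes higher in BUP, *2410006H16Rik* was at 190 and 342 CPM and *Mrps21*, a mitochondrial ribosome protein, at 72.9 and 129 CPM (log2 0.82, and 0.55 with the rule applied after thinning). *Tmem176b* was at 56.9 and 138 CPM, but was lower in BUP (log2 -0.20) when each cell was given equal weight.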

How the data were processed

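UMI counts for every gene in every barcode were made by the authors with Cell Ranger 8.0.1 on GRCm39 (submitters' processing notes, which also name Seurat 5.0.1), and the deposited values are these counts, raw and per library. The 33696 feature rows were summed to 33670 symbols. Samples were grouped as UT or BUP from their labels. No doublets were removed, and the BUP and UT libraries were not integrated. Members and gene lists were chosen with earlier results of these data known. Sums per class were scaled to 1000000 UMIs of the class (CPM), and genes with 200 or more UMIs and 50 or more CPM in 1 library were compared, with 1.5-fold as the limit. Python 3.11.15, numpy 2.4.6, scipy 1.17.1, scanpy 1.11.5 (Scrublet, as an alternative) and matplotlib 3.10.9 were used, and the ratios were checked on simulated data. Genes were named as the 10 highest and lowest ratios at 100 CPM or more, the leading genes of each list and the genes the study names. *Il1a*, *Cdkn2c*, *Cdkn2d*, *Folr2*, *Rsad2*, *Cd274*, *Slbp*, *Atic* and the *Ccnb2* and *Cdk1* promoters were added after their values were seen. UMI depth sets the precision, and a count of 0 allows 3.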

Additional observations from a re-analysis of the deposited data

Results flagged for a closer look

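Among the named genes past 1.5-fold in members, 4 had log2 ratios of BUP over UT whose sign differed between members and C1q cells outside the cycle. Both counting intervals had to exclude no difference. Genes with the largest gaps between the ratios of members and of cells outside the cycle were among those named. The 4 were thus partly chosen for this trait and are not a count over all genes compared. The difference was not tested, since there is 1 library per condition. *Ccl5* stood at -3.11 in members and 1.26 outside the cycle, and 82.7% of its member UMIs came from 5 cells. *Gzmf*, a granzyme gene of cytotoxic lymphocytes, stood at 0.83 and -1.52, with 86.5% of its UMIs in 5 cells. *Mmp12* stood at -0.70 and 0.17, with 47.5% in 5 cells. *Plac8*, a gene of monocytes and other young leukocytes, stood at -1.01 and 0.63, with 29.9% in 5 cells.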

How the results depend on the processing

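No paired analysis was possible because each condition has 1 library, so fewer than 2 replicate numbers could be shared and no replicate could be left out. Alternatives were run for 52 named genes, chosen mostly for large ratios or differences, and 40 of them were past 1.5-fold in members. Over all 3710 genes compared, 1.32% were past it higher and 3.4% lower, so the number 40 follows mostly from that choice. Of these 40, 13 stayed past 1.5-fold and 34 kept their sign under all 11 alternatives in which cells, scaling or weights changed. The alternatives that asked for 2000 UMIs and 2 cycle UMIs, or left out the 5 deepest members, were chosen after seeing the data. Causes were not tested.

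A cycle threshold of 20 gave 6.49% and 5.02% of UT and BUP C1q cells in the cycle (1.23% and 0.413% of kept cells, difference -1.47 points), 127 genes lower than outside the cycle, a DNA synthesis ratio of 0.0046, a mitosis ratio of -0.14 and *Gzmf* at -3.30. Thinning to 2000 UMIs before the rule gave 17.3% and 14.1% (3.70% and 1.40% of kept cells with 2000 or more UMIs). It gave 23 genes higher and 18 lower in BUP, and 75 higher than outside. The mitosis ratio was -0.0926, with *Ccl5* at 0.57, *Isg15* at 0.16 and *Plac8* at 0.53. A C1q threshold of 30 gave a DNA synthesis ratio of -0.40, and leaving out the 5 deepest members gave -0.21. Without the highest Scrublet scores the mitosis ratio was -0.0035, *Hmga2* was at -0.54 and *Gzmf* at -1.24. Without cells carrying other markers, members were 3.47% and 1.30% of kept cells, the mitosis ratio was -0.012 and *Ccl5* was at 0.30. With *Ptprc*-positive cells only, members were 3.31% and 1.31%. Median-ratio scaling and equal weight per cell both gave a mitosis ratio of 0.10, and equal weight gave 187 genes higher and 273 lower, with *Tmem176b* at -0.20. A 2-fold limit gave 3 higher and 27 lower in BUP, and 166 higher and 16 lower than outside. At 1000 or more UMIs these were 12, 11 and 146 (genes lower than outside stayed within 1.5 times). With no filter on low counts they were 2302, 1527, 1375 and 303. Depth limits genes under 200 UMIs, and the 55 BUP members limit every BUP value.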
